A study of Rattus norvegicus with 6 samples.

Results

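Collagens are the proteins that give skin its tensile strength, and each is built from 3 alpha chains wound into a triple helix, every chain with its own gene. The genes described here are all those of a deposited expression table of diabetic rat wounds whose symbol is Col, a number, the letter a and a number. There were 44 of them among 18825 genes, and they were sorted into 11 fibrillar, 9 basement membrane, 9 FACIT, 9 network, 4 transmembrane and 2 other chains. FACIT chains are those of fibril-associated collagens with interrupted helices. Symbols were taken as the table gives them, and all 44 identifiers were in the RefSeq gene table.

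Full-thickness wounds were made on the backs of male Sprague–Dawley rats made diabetic with a diet rich in fat and sucrose and then streptozotocin, a toxin of insulin-producing cells. Control wounds, 3 libraries, were untreated. The other 3 libraries came from wounds given DST-MNs, microneedles that carry spheroids of dental pulp stem cells regulated with spermidine and TGF-β3. The labels name no control microneedle without cells, no day of collection and no age, so the effects of the needle, the cells and the added factors cannot be told apart. Library totals ran from 12545206 to 13818548 counts. Summed TPM of 6 skeletal muscle markers stood at 4594, 21.9 and 214 in controls 1, 2 and 3 and between 3151 and 4437 in the treated libraries, so controls 2 and 3 held little muscle RNA. Fibroblast markers, which define the main cell making fibrillar collagen, summed to 8154 to 10760 TPM in controls and 6110 to 8152 TPM after treatment. None of the 7 fibroblast markers passed the test over all genes (edgeR). At an unadjusted p below 0.05, 2 were lower, where 6.88% of all genes were. Log2 changes were negative for 6 of the 7, with a median of -0.57. In bulk tissue, fewer cells of a type and less RNA per cell cannot be told apart.

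In a healing wound, fibroblasts lay down type III and then type I collagen as fibrils, with type V inside the fibril setting its width. Type IV networks, joined by types XV and XVIII, form the sheets under vessels and epidermis, and type VII and the transmembrane type XVII anchor the epidermis to the dermis. Type VI forms beaded filaments around cells, and FACIT chains sit on fibril surfaces.

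Promoter sequences are shown for the members on which the comparison turns, from RefSeq in the build GRCr8, each read 5′ to 3′ on the strand named and ending at the base before the annotated start. The set holds the fibrillar chain Col1a2, whose groups overlapped. It holds Col6a6 and Col17a1, which had large positive differences, though the groups of Col17a1 overlapped. It also holds the stretch shared by Col4a1 and Col4a2, which lie head to head and both had negative log2 changes. Capitals mark 3 motifs searched on either strand: the letters CCAAT of the box of that name, the letters TATAAA of the TATA box and the letters GGGCGG of the GC box. They did not overlap one another in the 4 stretches. The stretch between the starts of Col4a1 and Col4a2 is chr16:84885521-84885596 on the plus strand, that of Col1a2 chr4:33518307-33518556 on the plus strand, that of Col6a6 chr8:115352162-115352411 on the minus strand and that of Col17a1 chr1:256518858-256519107 on the minus strand.
Col4a1 and Col4a2, between the starts: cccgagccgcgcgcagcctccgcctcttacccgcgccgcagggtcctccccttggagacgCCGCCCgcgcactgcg
Col1a2: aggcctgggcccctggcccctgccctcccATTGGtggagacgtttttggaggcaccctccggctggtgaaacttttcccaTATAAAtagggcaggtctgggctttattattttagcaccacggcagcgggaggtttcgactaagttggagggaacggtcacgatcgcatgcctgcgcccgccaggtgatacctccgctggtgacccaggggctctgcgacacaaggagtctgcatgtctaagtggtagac
Col6a6: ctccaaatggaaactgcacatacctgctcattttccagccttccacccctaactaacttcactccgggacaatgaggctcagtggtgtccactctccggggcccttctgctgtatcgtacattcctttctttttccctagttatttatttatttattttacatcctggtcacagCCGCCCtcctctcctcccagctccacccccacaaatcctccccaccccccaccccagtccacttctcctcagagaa
Col17a1: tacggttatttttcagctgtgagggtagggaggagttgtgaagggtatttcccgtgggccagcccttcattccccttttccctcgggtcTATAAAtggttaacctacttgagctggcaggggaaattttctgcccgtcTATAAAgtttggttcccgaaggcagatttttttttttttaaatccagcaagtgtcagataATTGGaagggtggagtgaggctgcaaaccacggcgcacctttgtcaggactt
Only 76 bases lie between the starts of the type IV pair, and 78.9% of them are G or C. They hold 1 GGGCGG, read on the minus strand, and neither of the other motifs. Col1a2 has 1 TATA box on its own strand and 1 CCAAT box on the opposite strand, Col17a1 has 2 and 1 of them likewise, and Col6a6 has 1 GC box on the opposite strand. The 250 bases before the start held GGGCGG in 30.5% of 33469 RefSeq promoters and in 52.6% of the 38 promoters of 35 matched collagen genes. CCAAT was in 34.0% of all and 31.6% of the collagen promoters, and TATAAA in 12.9% and 10.5%. A match describes letters only. Entries were not matched for Col12a1, Col14a1, Col1a1, Col22a1, Col25a1, Col2a1, Col3a1, Col6a2 and Col9a3.

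Mean levels ran from 8627 TPM for Col3a1 to 0.0367 TPM for Col2a1. TPM, which scales counts by gene length and library, allows levels of different genes to be compared. Mean TPM over the 6 libraries was at least 100 for 16 of the 44 genes, from 10 to 100 for 4, from 1 to 10 for 9 and below 1 for 15. Col3a1, Col1a1 and Col1a2 led with mean TPM of 8627, 7399 and 4862, and together made up 80.8% to 85.4% of all collagen TPM in a library. The next were Col6a2 and Col6a1 at 728 and 725, whose difference was smaller than their spread over libraries, then Col5a2 at 469, Col5a1 at 445 and Col4a1 at 394. The leading FACIT chains were Col12a1 at 231 and Col16a1 at 178, and the leading transmembrane chain was Col17a1 at 15.8. At the bottom of the order were Col2a1 with 10 counts in all 6 libraries and, next to it, Col25a1 with 31.

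**Figure D1:**
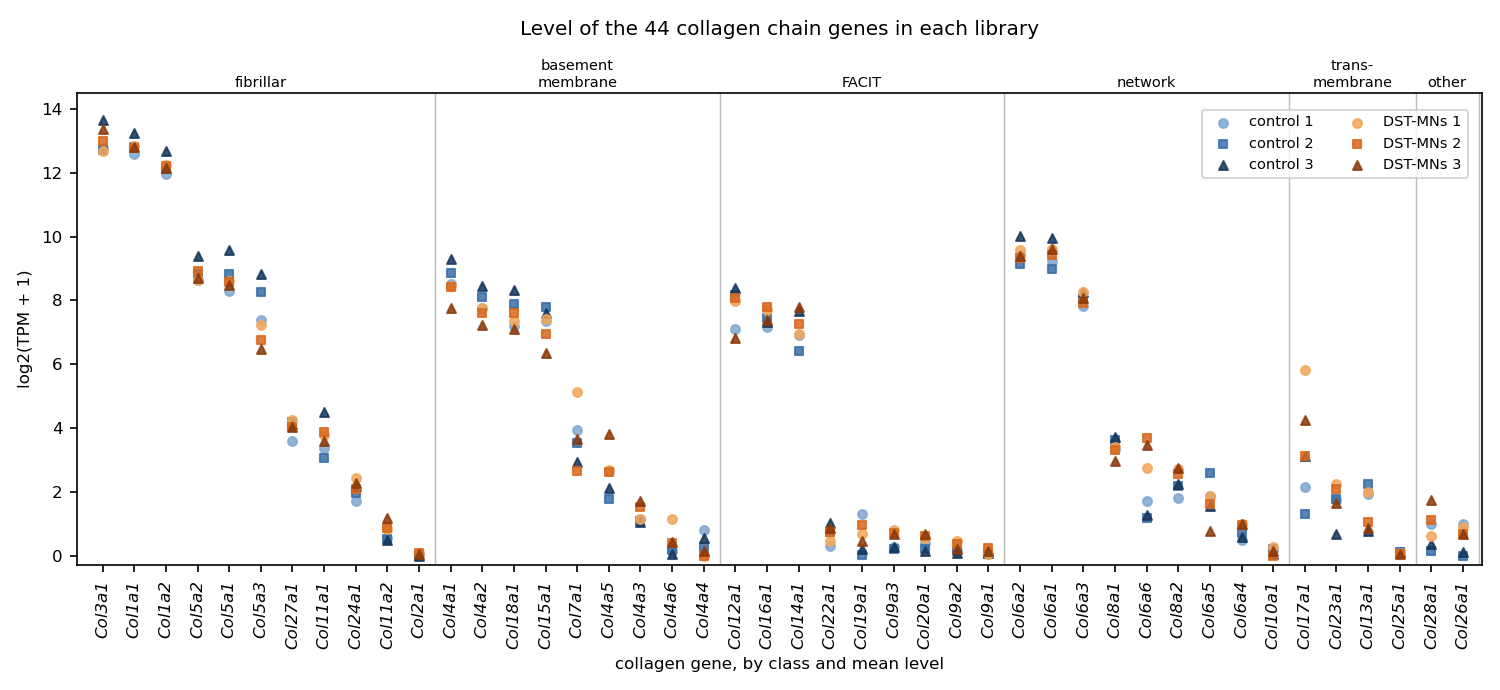
Level of each of the 44 collagen chain genes as log2(TPM + 1) on the vertical axis, with genes on the horizontal axis in class blocks and 1 point per library (blue control, orange DST-MNs). Col3a1, Col1a1 and Col1a2 stand above all others in every library, with mean TPM of 8627, 7399 and 4862, while the treated and control points of most genes overlap.

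The comparison asked whether any collagen gene differs between treated and untreated diabetic wounds. Of the 44, 38 passed the filter on low counts, and the other 6 were Col4a4, Col9a1, Col9a2, Col2a1, Col25a1 and Col10a1. None of the 38 passed the threshold over all genes (adjusted p under 0.05 by the quasi-likelihood test of edgeR), where 0.776% of 14427 genes did, 0.658% higher and 0.118% lower. At an unadjusted p below 0.05 there were 13 of the 38 (34.2%), 8 higher and 5 lower, where 16.7% of all genes were past it, 9.80% higher and 6.88% lower. In CPM, counts scaled by library, the groups did not overlap for 12 members, 7 higher and 5 lower. This was so for 22.9% of the 14427 genes, of which 1857 were higher (12.9% of the 14427) and 1448 lower. The count filter asked for at least 0.754 CPM in 3 libraries. Of the 38 members, 6 reached it only with the treated libraries (Col4a6, Col9a3, Col19a1, Col20a1, Col26a1 and Col28a1) and 0 only with the controls, and 3 of the 8 higher members are among these 6. DESeq2 called 6 of the 38, Col6a6 and Col4a6 higher and Col4a1, Col4a2, Col5a3 and Col15a1 lower, where it called 7.06% of all genes, 4.34% higher and 2.72% lower, and limma-voom called 0, where it called 0.658%. Log2 changes were positive for 19 and negative for 19 members, as they were for 50.5% and 49.5% of all genes, with a median of -0.01 beside 0.00 for all genes tested, and ran from -1.61 to 2.52. Without control replicate 1, 3 members passed, Col6a6 and Col26a1 higher and Col5a3 lower. Control 1 is the only control rich in muscle markers, so without it muscle content and treatment cannot be told apart.

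**Figure D2:**
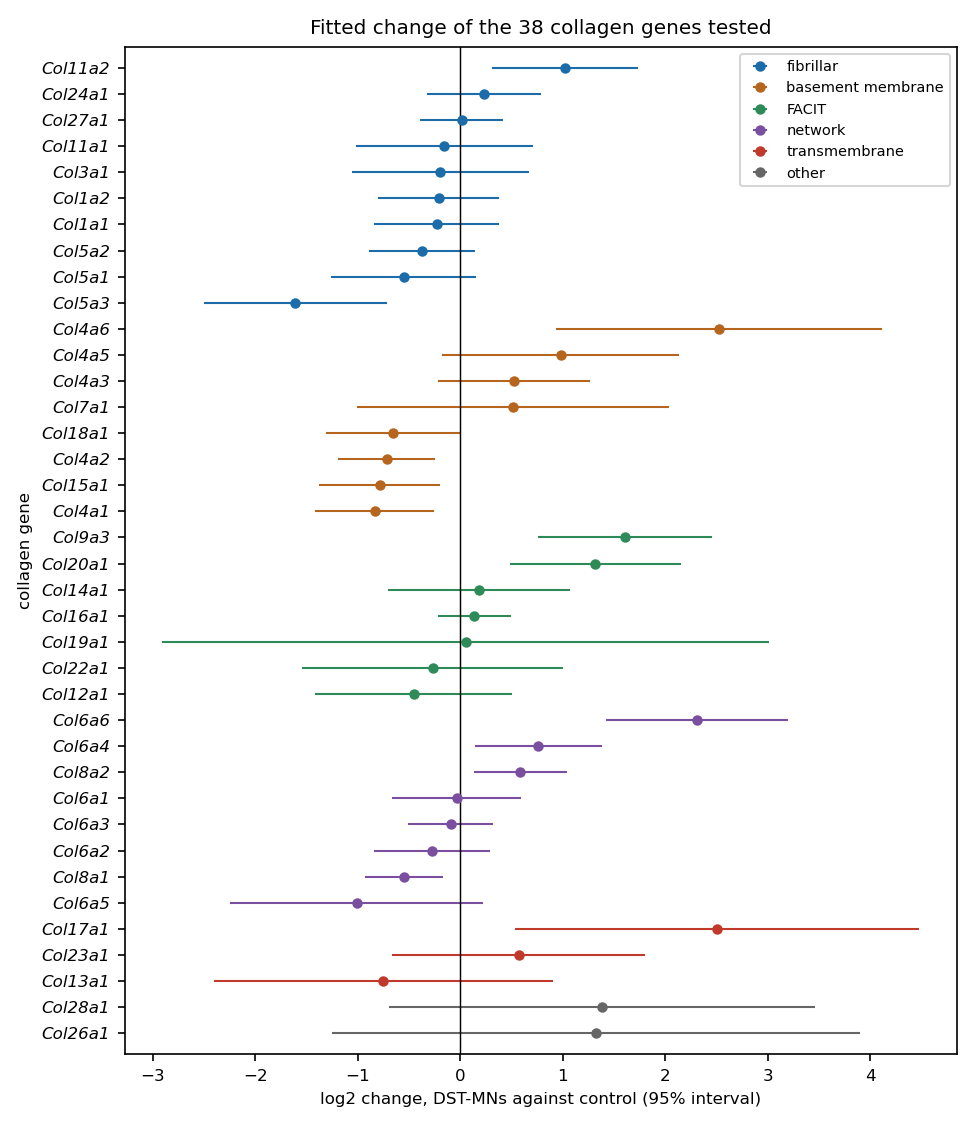
Fitted log2 change of DST-MNs against control (horizontal axis) for the 38 collagen genes tested, coloured by class, with bars for the 95% interval. Positive changes of Col4a6, Col17a1 and Col6a6 lie between 2.31 and 2.52, Col5a3 is at -1.61, and the abundant chains Col1a1, Col1a2 and Col3a1 lie near 0 with intervals that cross it.

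Among the fibrillar chains, the abundant fibril genes overlapped between the groups, while Col5a3 was lower in all treated libraries. Of 10 tested, 1 was higher and 1 lower at an unadjusted p below 0.05, where 9.80% and 6.88% of all genes were. The median log2 change was -0.21. Values by library are CPM (counts scaled by the library total and its TMM factor), given in the order of replicates 1, 2 and 3. Col1a1 (gene ID 29393), the major chain of type I collagen, was at 28430, 32380 and 41340 CPM in controls and 28000, 28240 and 30860 after treatment. Control 3 was the highest library and the groups overlapped. Its log2 change was -0.23 (SE 0.26, 95% interval -0.84 to 0.38, edgeR adjusted p = 0.691). Col1a2 (84352), the partner chain of type I, was at 13960, 15000 and 21360 CPM in controls and at 14020, 14390 and 14980 after treatment. It too was highest in control 3, with a log2 change of -0.21 (SE 0.25, edgeR adjusted p = 0.702). Without control replicate 3 the log2 changes were -0.07 for Col1a1 and -0.005 for Col1a2, and without control replicate 1 they were -0.35 and -0.33. Col3a1 (84032), the only chain of type III, was at 26480, 24740 and 44460 CPM in controls and 20100, 26470 and 36900 after treatment. Its log2 change was -0.20 (95% interval -1.06 to 0.67, edgeR adjusted p = 0.821), and 0.12 without control replicate 3. In TPM the fibroblast marker sums given above were lower in the treated libraries too, but the ranges nearly met. The highest treated sum was 8152 TPM and the lowest control sum 8154 TPM. The part of fibroblast content in these values was not tested.

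Among the type V chains, Col5a3 (60379), a chain of limited tissue range, was at 605, 1086 and 1563 CPM in controls and 466, 314 and 285 after treatment. The groups did not overlap, and control 1, the control with much muscle, was closest to the treated libraries. The part of muscle content in this value was not tested. Its log2 change was -1.61 (SE 0.37, 95% interval -2.50 to -0.72, edgeR adjusted p = 0.131). It was past the threshold with DESeq2 (adjusted p = 0.000168) and without control replicate 1 (log2 change -1.90, edgeR adjusted p = 0.0353), with adjusted p from 0.0353 to 0.35 when each library was left out. The other type V chains, Col5a1 and Col5a2, had log2 changes of -0.55 and -0.38 with overlapping groups and intervals that held 0. Col11a2 (294279), a chain of the fibrils of cartilage, had 26, 26 and 22 counts in controls and 49, 44 and 65 after treatment. Its groups did not overlap, but the level was low (mean TPM 0.713) and its log2 change was 1.02 (SE 0.30, edgeR adjusted p = 0.178). Of 8 cartilage and bone markers 4 passed the count filter, with log2 changes of 4.17 for Acan, which passed only through the treated libraries, 1.38 for Sox9, 0.13 for Sp7 and -0.12 for Comp. Matn1, a defining cartilage marker, had 3 counts in all. Ibsp, a bone marker that failed the filter, was at 0.06, 1.44 and 0.67 TPM in controls and 0.06, 0.37 and 0.06 after treatment, and the list summed to 2.72 to 5.25 TPM in controls and 3.61 to 9.80 after treatment. Its part in the result was not tested. Col11a1, Col24a1 and Col27a1 had log2 changes from -0.16 to 0.23, and the groups overlapped for each.

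Among the basement membrane chains, Col4a1, Col4a2 and Col15a1 were below every control in all treated libraries in CPM, and Col4a6 was above every control. Of 8 tested, these 3 were lower and 1 higher at an unadjusted p below 0.05, where 6.88% and 9.80% of all genes were. The median log2 change was -0.07. Col4a1 (290905), which with Col4a2 makes the common type IV trimer, was at 1928, 2397 and 3060 CPM in controls and 1504, 1552 and 1075 after treatment. The groups did not overlap. Its log2 change was -0.84 (SE 0.24, 95% interval -1.42 to -0.26, edgeR adjusted p = 0.174). Col4a2 (306628), which starts 76 bases away on the other strand as shown above, was at 1077, 1350 and 1611 CPM in controls and 897, 847 and 707 after treatment. Its groups did not overlap in CPM either, but in TPM control 1 was at 213.94 and DST-MNs 1 at 216.41. The log2 change of Col4a2 was -0.72 (SE 0.20, edgeR adjusted p = 0.164). DESeq2 called both (adjusted p = 0.00529 and 0.00413). Leaving out each library, the log2 change ran from -0.99 to -0.66 for Col4a1 and from -0.86 to -0.58 for Col4a2, and neither passed in edgeR. The values of -0.99 and -0.86 came without control replicate 1. Control 1, the control with much muscle, was the control closest to the treated libraries for both genes. The part of muscle content in these values was not tested.

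Col15a1 (298069), a chain between basement membrane and fibrils, was at 677, 881 and 731 CPM in controls and 581, 434 and 311 after treatment. In CPM every treated library was below every control (log2 change -0.79, SE 0.25, edgeR adjusted p = 0.201). In TPM the groups overlapped, at 164.4 in control 1 and 171.32 in DST-MNs 1. Col18a1, the source of endostatin, was at 576, 906 and 1175 CPM in controls and 527, 660 and 501 after treatment, and there the groups overlapped (log2 change -0.65, 95% interval -1.31 to 0.00). Markers of endothelial cells, whose basement membrane holds these chains, summed to 422 to 523 TPM in controls and 378 to 502 after treatment, and 6 of 6 had negative log2 changes with a median of -0.26. Mural cell markers had 3 positive and 3 negative changes (median -0.06) and summed to 1024 to 1672 and 1049 to 1430 TPM. Among the endothelial markers 0 passed in edgeR and 1 was lower at an unadjusted p below 0.05, where 6.88% of all genes were. Control 1, the control with much muscle, was the lowest control for Col15a1 and Col18a1. The parts of endothelial, mural and muscle content in the collagen values were not tested.

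Of the minor type IV chains, Col4a6 (363458), a chain of epithelial basement membranes, had 7, 9 and 3 counts in controls and 77, 20 and 23 after treatment. It is among the 6 that needed the treated libraries to pass the count filter, and 0 controls reached the filter level. DST-MNs 1 was far above the rest, and the groups did not overlap (log2 change 2.52, SE 0.67, edgeR adjusted p = 0.156). Without DST-MNs replicate 1 the log2 change was 1.71. Its usual partner Col4a5 was at 27.8, 12.4 and 16.3 CPM in controls and 23.7, 23.5 and 64.2 after treatment, with overlap and a log2 change of 0.98. Col4a3 had a log2 change of 0.52 with overlap. Col4a4, which failed the filter, had 7, 2 and 4 counts in controls and 0, 0 and 1 after treatment. Col7a1 (301012), the chain of anchoring fibrils, was at 108, 78.7 and 46.1 CPM in controls and 215, 34.7 and 82.9 after treatment. The treated libraries lay on both sides of the controls, so its log2 change of 0.51 (95% interval -1.01 to 2.03) went to -0.41 without DST-MNs replicate 1.

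Among the transmembrane chains, at an unadjusted p below 0.05, where 9.80% of all genes were higher, 1 of 3 tested was higher. This was Col17a1 (294027), the hemidesmosomal collagen of basal keratinocytes, at 16.6, 6.91 and 34.6 CPM in controls and 218, 31.3 and 81.2 after treatment. DST-MNs 2 was below control 3, so the groups overlapped. The log2 change was 2.51 (SE 0.83, 95% interval 0.54 to 4.48, edgeR adjusted p = 0.212) and 1.54 without DST-MNs replicate 1. Basal keratinocyte markers summed to 207, 49.8 and 203 TPM in controls and 3809, 330 and 1255 TPM after treatment. Their log2 changes were positive for 6 of 6, with 0 past the threshold in edgeR. At an unadjusted p below 0.05, 5 were higher, where 9.80% of all genes were. Krt15, 1 of these 5, reached the count filter level in 2 controls and 3 treated libraries, so it needed the treated libraries to be tested. Col17a1 was highest in DST-MNs 1 and lowest in control 2, as was that sum. Col4a6 and Col7a1 were highest in DST-MNs 1 too. The part of keratinocyte content in these 3 values was not tested. Col23a1 and Col13a1 had log2 changes of 0.57 and -0.75, with overlap. Col23a1 was at 11.1, 10.3 and 2.57 CPM in controls and 14.0, 12.4 and 8.95 after treatment, and its log2 change was 0.14 without control replicate 3 and 0.88 without control replicate 1. Col25a1, with 31 counts in all, was not tested.

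Among the network and beaded-filament chains, Col6a6 had the smallest p of all collagens, while the abundant type VI chains overlapped between the groups. Of 8 tested, 3 were higher and 1 lower at an unadjusted p below 0.05, where 9.80% and 6.88% of all genes were. The median log2 change was -0.07. Col6a6 (315979), a minor chain of type VI that can take the place of Col6a3, was at 16.3, 8.93 and 9.33 CPM in controls and 33.1, 72.5 and 66.0 after treatment. Every treated library was above every control. Its log2 change was 2.31 (SE 0.37, 95% interval 1.42 to 3.20) with an adjusted p of 0.0559 in edgeR, which misses the threshold. It was past the threshold with DESeq2 (adjusted p = 9.11e-08), with total counts as scaling (0.0457), in the limma trend test of TPM (0.0452) and without control replicate 1 (0.034), and its adjusted p ran up to 0.212 when another library was left out. The muscle marker sums were also high in the 3 treated libraries and in control 1, the highest control for Col6a6, and the part of muscle content was not tested. Its neighbours on chromosome 8, Col6a5 and Col6a4, had other values. Col6a5 was at 18.2, 33.3 and 12.4 CPM in controls and 14.9, 12.3 and 4.48 after treatment, a log2 change of -1.01 with overlap. Col6a4 (315981) was at 2.40, 3.57 and 2.80 CPM in controls and 4.75, 4.77 and 5.34 after treatment, without overlap (log2 change 0.76, SE 0.26, edgeR adjusted p = 0.225).

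Col6a1 (294337), shared by all type VI trimers, was at 1921, 1546 and 2931 CPM in controls and 2027, 1888 and 2332 after treatment. The treated libraries lay within the range of the controls (log2 change -0.03, 95% interval -0.66 to 0.59). The sign turned with total counts as scaling, limma-voom, the trend test of TPM, the replicate block and some libraries left out. Col6a2 (361821) was at 1902, 1528 and 2699 CPM in controls and 1760, 1539 and 1765 after treatment (log2 change -0.28, 95% interval -0.84 to 0.29), and its log2 change was -0.03 without control replicate 3 and -0.45 without control replicate 2. Col6a3 had a log2 change of -0.10 (95% interval -0.51 to 0.32). The chains of type VIII, found in vessel walls and in Descemet's membrane of the eye, had differences of opposite sign. Col8a1 (304021) was at 20.2, 24.5 and 25.2 CPM in controls and 17.5, 16.1 and 14.0 after treatment (log2 change -0.55, SE 0.16, edgeR adjusted p = 0.173). Col8a2 (313592) was at 10.1, 14.0 and 13.9 CPM in controls and 18.4, 17.1 and 21.4 after treatment (log2 change 0.59, SE 0.19, edgeR adjusted p = 0.211). Neither pair of groups overlapped in CPM, but in TPM Col8a1 was at 9.15 in control 1 and 9.56 in DST-MNs 1.

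Among the FACIT chains, the abundant members overlapped between the groups and 2 scarce members did not. Of 7 tested, these 2 were higher at an unadjusted p below 0.05, where 9.80% of all genes were. The median log2 change was 0.14. Col12a1 (25683), on the surface of type I fibrils, was at 1139, 2264 and 2524 CPM in controls and 1671, 1830 and 818 after treatment (log2 change -0.46, 95% interval -1.42 to 0.50). That change was -0.17 without DST-MNs replicate 3 and -0.74 without control replicate 1. Col16a1 (366474) was at 464, 545 and 486 CPM in controls and 596, 571 and 477 after treatment, with overlap and a log2 change of 0.14 (95% interval -0.22 to 0.49), which was 0.06 without DST-MNs replicate 1 and 0.23 when the third treated library was left out. Col14a1 had a log2 change of 0.18. Of the scarce chains, Col9a3 (362285) had 5, 4 and 5 counts in controls and 17, 15 and 14 after treatment (log2 change 1.61, SE 0.36, edgeR adjusted p = 0.117). Its counts were close within each group and did not overlap, at a mean TPM of 0.433, but 0 controls reached the count filter level, so a gene at its control level would not have been tested. Col20a1 (311716) had 18, 12 and 9 counts in controls and 37, 31 and 35 after treatment (log2 change 1.32, SE 0.35, edgeR adjusted p = 0.156), and it too needed the treated libraries to pass the filter, with 2 of 3 controls reaching it. Col19a1 and Col22a1 had log2 changes of 0.05 and -0.27 with wide intervals, and Col19a1 ran from 1 count in control 2 to 166 in control 1, which are also the libraries with the least and the most muscle marker TPM. The part of muscle content in that spread was not tested. Of the other chains, Col28a1 had 38, 4 and 11 counts in controls and 20, 37 and 85 after treatment, a log2 change of 1.38 that was 0.57 without DST-MNs replicate 3 and 2.59 without control replicate 1. Markers of Schwann cells, the glia of peripheral nerves, where type XXVIII is known, summed to 40.1, 7.40 and 2.67 TPM in controls and 11.3, 52.4 and 103 TPM after treatment, and their part in its value was not tested. Col26a1 had 18, 0 and 1 counts in controls and 21, 15 and 15 after treatment, and its log2 change of 1.33 became 4.69 (edgeR adjusted p = 0.049) without control replicate 1. The controls left then held 0 and 1 counts, and 0 of them reached the count filter level, so that call rests on a gene tested only through the treated libraries. Its counts were low in controls 2 and 3, as were the muscle marker sums of 21.9 and 214 TPM, and the part of muscle content was not tested.

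Of the 38 members, 16 were highest in control 3, where 17.7% of all genes were, 1 in control 1 (12.2% of all genes), 4 in control 2 (15.7%), and, of the treated libraries 1, 2 and 3, 8 in the first (20.5%), 1 in the second (15.3%) and 8 in the third (18.6%). Control 2 was the lowest library for 11 members, against 18.5% of all genes. Col1a1, Col1a2, Col3a1, Col5a1, Col5a2, Col6a1 and Col6a2 were all highest in control 3. Taken as log2 deviations from each gene's own mean, the median member stood at -0.12, -0.05 and 0.11 in controls and at 0.00, -0.05 and 0.11 after treatment.

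**Figure D3:**
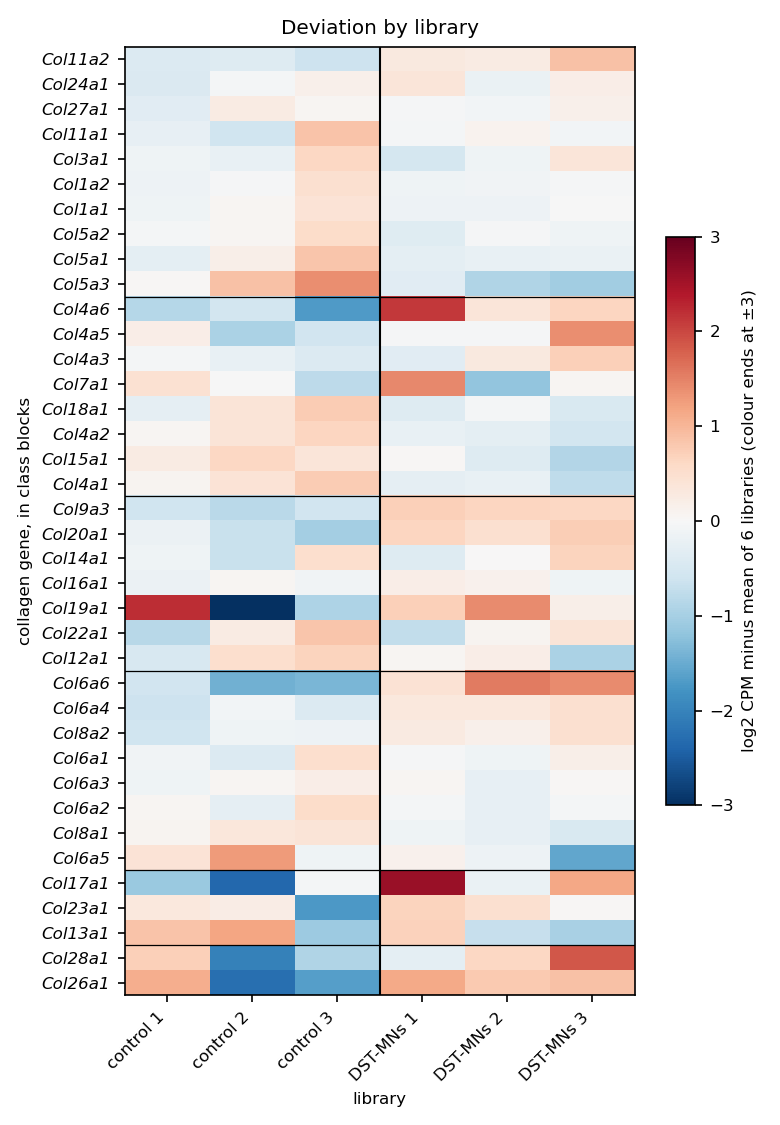
Colour gives the log2 CPM of each of the 38 collagen genes tested minus its mean over the 6 libraries, with libraries on the horizontal axis and genes on the vertical axis in blocks of fibrillar, basement membrane, FACIT, network, transmembrane and other chains. Control 3 is red for Col1a1, Col3a1 and Col5a1, and Col6a6 is blue in the 3 controls and red in the 3 treated libraries.

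Summed over the family, collagens made up 2.09%, 2.27% and 3.55% of TPM in controls and 2.31%, 2.42% and 2.59% after treatment. The treated libraries lay inside the control range, with means of 2.64% ± 0.797 and 2.44% ± 0.143 (SD, n = 3). Fibrillar chains held 86.6% ± 0.472 of collagen TPM in controls and 87.0% ± 1.91 after treatment (SD, n = 3), with overlap. Basement membrane chains held 4.36%, 5.35% and 4.22% in controls and 4.06%, 3.59% and 2.36% after treatment, with every treated library below every control. The transmembrane share was higher in every treated library, at 0.272%, 0.0503% and 0.0819% against 0.0419%, 0.0339% and 0.0259%, a class that holds Col17a1, given above with the keratinocyte markers. Network and FACIT shares overlapped between the groups. The exact permutation test of 3 against 3 libraries cannot go below 0.1, and no p is given for these sums over members.

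Ratios between chains within a library do not depend on the scaling between libraries, and 3 were tested with a two-sided exact permutation test, which cannot go below 0.1 for 3 against 3 libraries. There was 0.614 to 0.685 TPM of Col1a2 per TPM of Col1a1 over the 6 libraries, a log2 SD of 0.0565. The group difference in that log2 ratio was 0.03 (exact permutation p = 0.7, n = 3). Col4a1 stood at 1.45 to 1.81 TPM per TPM of Col4a2, and the difference in its log2 ratio, DST-MNs minus control, was -0.12 (exact permutation p = 0.3, n = 3). The ratio of Col3a1 to Col1a1, a common measure of fibril makeup, ran from 0.887 in DST-MNs 1 to 1.48 in DST-MNs 3, and the group means of the log2 ratio were 0.18 ± 0.247 and 0.20 ± 0.368 (SD, n = 3, exact permutation p = 0.9). The 3 p-values were 0.9 after Benjamini-Hochberg adjustment over these 3 ratios.

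The other 4 ratios were chosen after the values were seen and carry no test. Col5a3 per Col5a1 was at log2 ratios of -0.91, -0.56 and -0.76 in controls and -1.40, -1.83 and -2.03 after treatment, so the treated libraries had less Col5a3 relative to Col5a1 and the groups did not overlap. Col6a2 per Col6a1 was at 0.17, 0.17 and 0.07 in controls and -0.02, -0.11 and -0.22 after treatment, again without overlap though the difference in means was only -0.25. The ratios of Col5a2 to Col5a1 and of Col6a3 to Col6a1 overlapped.

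**Figure D4:**
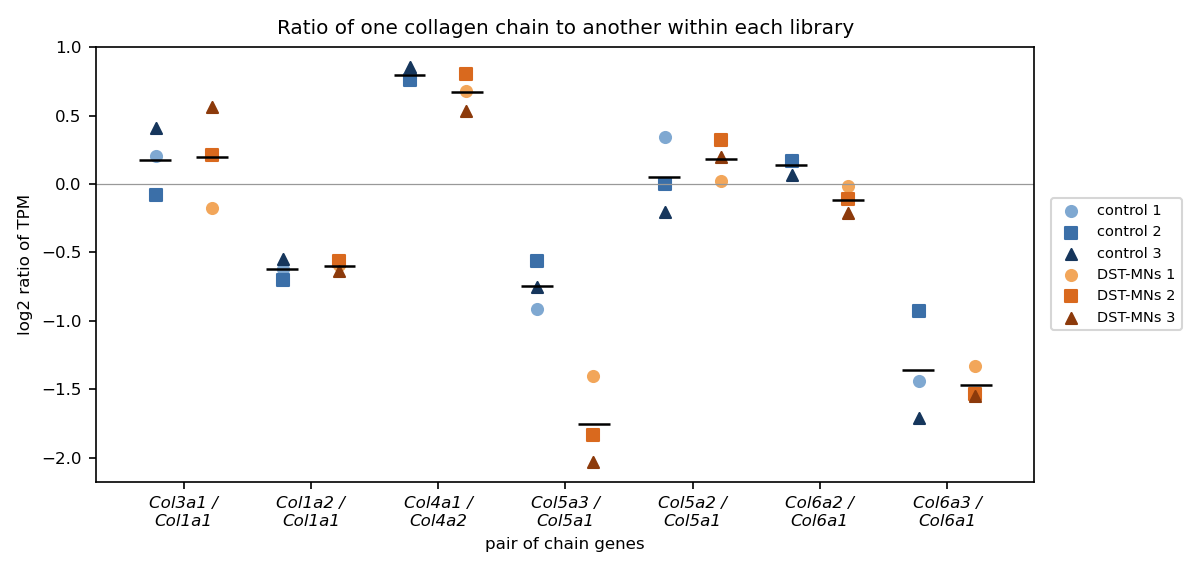
Log2 ratio of TPM (vertical axis) of 7 pairs of collagen chains (horizontal axis), with 1 point per library and a bar at each group mean. Col1a2 to Col1a1 lies within -0.70 to -0.55 in all libraries, and Col5a3 to Col5a1 is lower in the 3 treated libraries than in the 3 controls.

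Genes that act on collagen chains were taken from 7 lists. Before they leave the cell, the chains are hydroxylated, glycosylated and folded with chaperones, and outside it they are trimmed and cross-linked. In the lists for making collagen, log2 changes were mostly negative. Fibroblast markers were likewise negative in 6 of 7, with a median of -0.57. Dcn, Lum and Dpt are in both the fibroblast and the fibril partner list. The summed TPM of control 1, the only control rich in muscle markers, lay within the treated range for some lists. These were hydroxylases (1475 against 1271 to 1529), chaperones (9839 against 9183 to 11580) and cross-linking enzymes (426 against 389 to 504). For propeptide proteases (993 against 872 to 966) and fibril partners (10280 against 7196 to 9801) it lay above that range. Sums in CPM, the scale of the gene values below, were not taken and can place control 1 differently. The gene with most CPM in control 1 was P4hb among hydroxylases, Sparc among chaperones and Lox among cross-linking enzymes. Control 1 was above the treated range for P4hb (1431 against 928 to 1120 CPM) and Lox (653 against 416 to 538). Control 1 was within that range for Sparc (10010 against 7699 to 10880), which held 6754 of its 9839 chaperone TPM. The parts of fibroblast and muscle content in the values of these lists were not tested. Of 14 hydroxylases and glycosyltransferases tested, 13 were negative, with a median of -0.50 beside 0.00 for all genes, and 49.5% of all genes were negative. At an unadjusted p below 0.05, 7 of the 14 were lower and 0 higher, where 6.88% and 9.80% of all genes were. Plod2, a lysyl hydroxylase that directs the type of cross-link, fell from 100, 168 and 125 CPM to 48.2, 45.9 and 41.4 CPM (log2 change -1.54, SE 0.20, edgeR adjusted p = 0.0282) and was the only member past the threshold in this list. Chaperone and export genes were negative in 11 of 12, with a median of -0.54 and 0 past the threshold in edgeR. Of these, 7 were lower and 0 higher at an unadjusted p below 0.05, where 6.88% and 9.80% of all genes were. Serpinh1, the collagen chaperone HSP47, was at 2131, 3224 and 4248 CPM in controls and 1545, 1767 and 2200 after treatment. In that gene control 1 lay within the treated range, and Sec24d, a coat protein of export vesicles with the smallest p of the list, had a log2 change of -0.66 (SE 0.18).

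Of the 5 cross-linking enzymes, 4 were negative (median -0.62), and Lox, lysyl oxidase, was at 653, 1052 and 1181 CPM in controls and 416, 538 and 429 after treatment (log2 change -1.06, SE 0.25, edgeR adjusted p = 0.131). The groups of Lox did not overlap, and for Lox, as for Plod2, control 1 was the control closest to the treated libraries. Of 7 propeptide proteases and enhancers tested, 6 were negative (median -0.38), with the smallest p for Pcolce2, an enhancer of the trimming protease, at -1.79 (SE 0.34, edgeR adjusted p = 0.0864). Among 12 genes of breakdown and uptake the median was -0.13, and Timp1, an inhibitor of matrix metalloproteinases, was the only gene past the threshold, lower at -2.33 (SE 0.29, edgeR adjusted p = 0.0281). Fibril partners had a median of -0.36 over 10 genes and 0 past the threshold in edgeR, with the smallest p for the proteoglycan Ogn at 0.74. Collagen receptors had a median of -0.04 over 9 genes and 0 past the threshold. At an unadjusted p below 0.05, 3 were higher and 1 lower, where 9.80% and 6.88% of all genes were. The smallest p was that of Lair1, an inhibitory receptor of leukocytes, at 2.42 (SE 0.60, edgeR adjusted p = 0.143). Lair1 reached the count filter level in 0 controls and 3 treated libraries, so it was tested only because of the group where it was higher. Itga10, also among the 3 higher receptors, reached that level in 2 controls and 3 treated libraries, so it too needed the treated libraries.

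**Figure D5:**
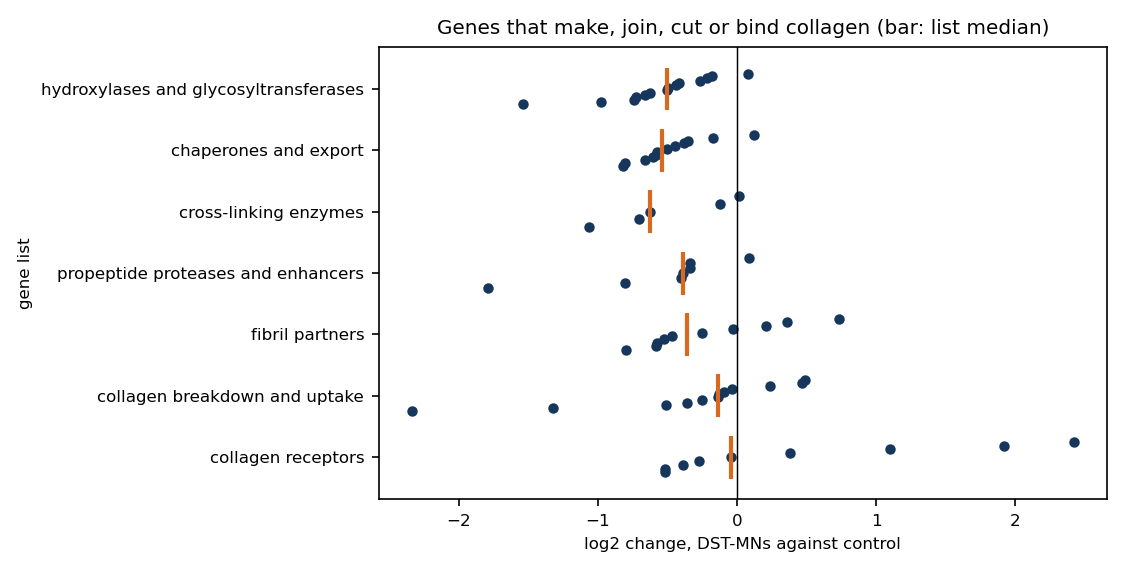
Log2 change of DST-MNs against control (horizontal axis) for each tested gene of 7 lists of collagen-handling genes (vertical axis), with an orange bar at the list median. Medians lie between -0.62 and -0.36 for the 5 upper lists and at -0.13 and -0.04 for breakdown and receptors.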

How the data were processed

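Paired-end libraries of mRNA from 6 wounds were read on the DNBSEQ-T7 platform, according to the labels. Per the file headers, the table holds estimated counts, whole for all 44 collagen genes, and TPM, which the authors computed per gene. The deposited FPKM and the authors' normalised counts, a signal that divides counts by 1 factor per library, were not used. The build was mRatBN7.2, per the submitters' processing notes. Aligner, counter and strand setting: not given in the sources used here.

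Counts were rounded, filtered with filterByExpr of edgeR 4.0.16 (minimum count 10, leaving 14427 genes), scaled with TMM factors and tested with its quasi-likelihood test in R 4.3.3, with Benjamini-Hochberg adjustment over all genes at 0.05. The biological coefficient of variation was 30.2%. The fit was tested on simulated data. Standard errors are the log2 change divided by the square root of F, and 95% intervals use the t distribution of the fit. A prior count of 2 went into log2 CPM. The labels call the libraries biological replicates, and chi-square over degrees of freedom between libraries of 1 group was 31.6 to 70.7, where counting error alone gives about 1. Members named by library were those with an unadjusted p below 0.05, the 2 most abundant of each class and 9 chains always named; Col4a5, Col6a5, Col18a1, Serpinh1 and the scarce chains given by count were added after their values were seen. From each other list, genes past the threshold or else that with the smallest p were named. The lists held 122 entries: 116 had their symbol in the table, 4 were found by a RefSeq synonym and 2 (Mep1b, Tnxb) were not matched. The members and lists were chosen with earlier results of these data known. Alternatives used DESeq2 1.42.0, limma 3.58.1, other scalings and filters, limma trend on log2(TPM + 1) for genes with mean TPM of at least 1, the replicate number as a block, and each library left out. Ratios, shares and plots came from Python 3.11.15 and matplotlib 3.10.9.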

Additional observations from a re-analysis of the deposited data

How the results depend on the processing

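No collagen gene passed with DESeq2's size factors, upper-quartile factors, no filter, a minimum of 10 counts in every library, limma-voom or the replicate number as a block. With total counts as scaling 1 passed, Col6a6, the median of the collagen genes was 0.11, and that of all genes moved from 0.00 to 0.12. The DESeq2 Wald test called 6 collagen genes and 1018 genes in all. The limma trend test of TPM called 1 collagen gene, Col6a6, with 7 at an unadjusted p below 0.05. With at least 10 counts in every library the collagen median was -0.15 over 32 genes, and 38 genes passed in all. Leaving out 1 library at a time, the genes past the threshold ran from 14 to 402, the collagen genes from 0 to 3, those at an unadjusted p below 0.05 from 11 to 17, and the collagen median from -0.16 to 0.13. The highest counts, 402 and 3, came without control replicate 1.

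Among the group differences, the collagen share of TPM ran from -0.47 to 0.26 percentage points with 1 library left out, the fibrillar share from -0.54 to 1.37, the log2 ratio of Col3a1 to Col1a1 from -0.16 to 0.21, that of Col1a2 to Col1a1 from -0.0144 to 0.0643, and that of Col6a3 to Col6a1 from -0.29 to 0.10. The log2 change of Col3a1 ran from -0.45 to 0.12, that of Col7a1 from -0.41 to 0.95 and that of Col6a1 from -0.23 to 0.26. Col6a1 was at 0.09 with total counts, 0.013 with limma-voom, 0.16 in the trend test of TPM and 0.012 with the replicate block. The causes of these moves were not tested.

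Same-numbered libraries were not taken as pairs. Their deviations correlated at -0.025, 0.101 and 0.109, where those of differently numbered libraries ran from -0.219 to 0.104. Under the replicate block 123 genes passed, 0 of them collagens, with 14 collagen genes at an unadjusted p below 0.05 and a collagen median of 0.02. Depth limits the 15 genes below 1 TPM, of which 6 were not tested.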
